A study of Triticum aestivum with 24 samples.

Results

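The make-up of the stem transcript profile was compared between the semi-dwarf line (*Rht-B1b*) and the standard height line (*Rht-B1a*) at 14 days past anthesis. The 6 stem samples, 3 of each line, were taken from 12 tissue samples, the other 6 being flag leaves, and all 25 genes other than actin were used of the 26 genes with wheat sequences. Both lines are field grown, irrigated spring wheat in the background of the cultivar Fortuna. The study calls them near isogenic lines. The *Rht-B1b* line was made by backcrossing, with Fortuna as the recurrent parent and Hi-Line as the donor of the *Rht-B1b* allele. The *Rht-B1a* samples are labelled as Fortuna itself. Donor segments other than the *Rht-B1b* allele may remain, and 1 line of each type was compared. A stem sample came from between the first and second internode and holds all cell types of that segment. In 1 place the sources make a replicate a pool of plants and in another a single internode. The samples of a line are numbered 1, 2 and 3 here. Samples with the same number have consecutive tissue sample numbers and are called a pair. In the main fits p-values measure the spread of the line difference between these 3 pairs. That spread is pooled, in full or in part, across genes or ratios.

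The DELLA proteins, which *Rht-B1* and *Rht-D1* encode in wheat, repress growth. Gibberellin binds the receptor GID1, the complex binds the DELLA protein, and an F-box protein, GID2 in rice, marks the DELLA protein for breakdown. The *Rht-B1b* allele encodes a DELLA protein that responds poorly to gibberellin, which gives the short stem. A cereal stem during grain fill carries sucrose to the ear and holds carbohydrate in store. Starch is made from ADP-glucose, which ADP-glucose pyrophosphorylase (AGPase) supplies, by starch synthases that lengthen the chains and branching enzymes that branch them.

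The values are RPKM (reads per kilobase of transcript, relative to all mapped reads), scaled by the authors so that actin has the same value, 1432.5 RPKM, in every sample. Read counts are unknown, so no counting interval is given and the precision rests on the replicates. On the actin scale most genes were higher in *Rht-B1b* stems. The geometric mean of the 25 genes was 1785, 1716 and 2123 RPKM in *Rht-B1b* stems, against 1343, 1174 and 1276 RPKM in *Rht-B1a* stems, a common shift of 0.56 on the log2 scale. Lower actin and a higher level of the other genes cannot be told apart from these values. The common shift was therefore removed: a relative level here is the log2 RPKM of a gene minus the mean log2 RPKM of the 25 genes in the same sample. Differences of relative levels sum to 0 over the 25 genes, so some genes must lie below 0 where others lie above. A ratio of 2 genes within a sample needs no such reference. The genes of green tissue were lower in stems than in leaves, as the main rbcS sequence (AB042066), which encodes the small subunit of RuBisCO, spanned 82651 to 135611 RPKM in the 6 stems and 750613 to 1873302 RPKM in the 6 leaves. The other 3 RuBisCO genes were also lower in every stem than in any leaf. No defining marker of a particular stem cell type is among the 26 genes. Fewer cells of a type and less RNA per cell cannot be told apart in these whole-tissue samples.

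Within this profile the gibberellin receptor gene gid1, *Rht-B1*, the AGPase large subunit gene agp2 and the rbcS sequence AB042069 rose in *Rht-B1b* stems relative to the other genes. A glutamate synthase gene (NADH-GOGAT-3B), the F-box gene gid2 and the sucrose transporter gene SUT1D fell. The 4 that rose were 1.52-fold to 1.84-fold higher, and NADH-GOGAT-3B was at 0.470 of its relative level in *Rht-B1a* stems. In all 7 of 25 genes (28.0%) passed an adjusted p of 0.05 in limma, 4 higher (16.0%) and 3 lower (12.0%), with 8 at an unadjusted p under 0.05. The 3 samples of each line did not overlap for 8 of 25 genes (32.0%), which include SUT2D and the rbcS sequence KT288199, neither of which passed. They do not include AB042069, which passed but was higher in only 2 of 3 pairs. The smallest differences, less than 0.1 on the log2 scale or 1.07-fold, were those of 6 genes: AB042066, rbcL, the ATP synthase subunit, starch synthase IV, Sbe2 and GS2. Of these, rbcL had only 0.117 to 0.222 RPKM in stems, and it differed by -0.46 and -0.49 with a pseudocount of 1 and 100. Relative levels of these 6 overlapped between the lines.

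**Figure D1:**
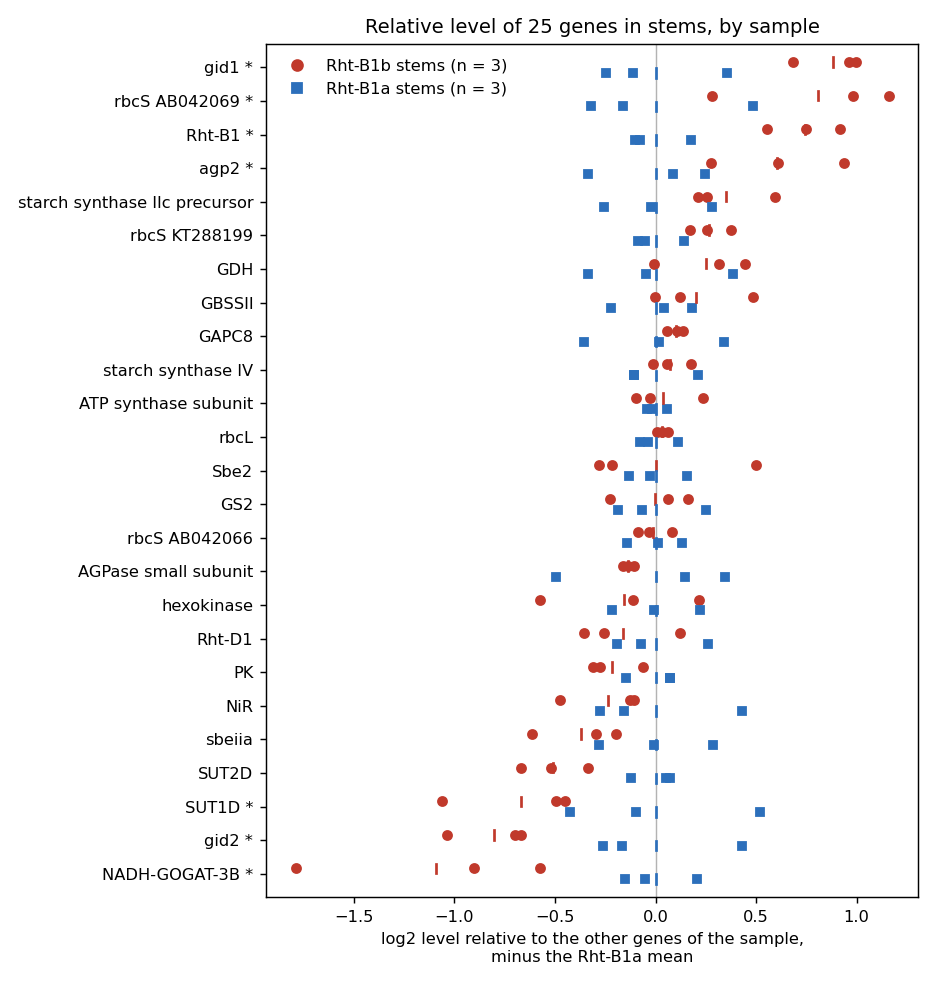
Relative log2 level of each of 25 genes in the 3 *Rht-B1b* (red circles) and 3 *Rht-B1a* (blue squares) stem samples, shown minus the mean of *Rht-B1a*. Short bars are the means and a star marks an adjusted p under 0.05 in limma. The means of *Rht-B1b* run between -1.09 for NADH-GOGAT-3B and 0.88 for gid1.

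The test took the pairs as a block and was two-sided, with Benjamini-Hochberg adjustment over 25 genes. All 25 genes shared 1 standard error in this fit, 0.22 on the log2 scale, and with each gene's own standard error none passed, while 5 had an unadjusted p under 0.05. The count was 5 without pair 1, 4 without pair 2 and 1, NADH-GOGAT-3B, without pair 3. With actin as the reference 13 genes passed, all of them higher. An exact permutation test of 3 samples against 3 cannot go below p = 0.1.

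Of the 4 gibberellin genes, 2 rose, 1 fell and 1 did not pass, against 28.0% of all 25 genes past the threshold in either direction, and the median difference was 0.29 against 0.0018 over all 25 genes. The receptor gene gid1 (FR668558) had 618, 491 and 755 RPKM in *Rht-B1b* stems, against 306, 193 and 192 RPKM in *Rht-B1a* stems. Every *Rht-B1b* sample lay above every *Rht-B1a* sample, and this held for relative levels as well. The relative level of gid1 was higher by 0.88 in *Rht-B1b* stems (standard error 0.22, adjusted p = 0.00268 from limma), a 1.84-fold difference. *Rht-B1* (FR668586) had 4869, 4168 and 4499 RPKM in *Rht-B1b* stems, against 1804, 1917 and 1748 RPKM in *Rht-B1a* stems. These are the most widely separated RPKM of the 4 genes, and the relative level was higher by 0.74 (standard error 0.22, adjusted p = 0.00753 from limma). Reads were counted only where they matched the listed sequence fully, and *Rht-B1* differs in sequence between the alleles. Unequal matching of the alleles was not tested.

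The F-box gene gid2 (KU857036) had 874, 821 and 804 RPKM in *Rht-B1b* stems, against 931, 1229 and 827 RPKM in *Rht-B1a* stems. Its RPKM overlapped between the lines, while its relative level was -1.03, -1.06 and -1.40 in *Rht-B1b* stems, against -0.53, 0.067 and -0.63 in *Rht-B1a* stems, with no overlap. The relative level fell by 0.80 in *Rht-B1b* stems (standard error 0.22, adjusted p = 0.00410 from limma), and with actin as the reference it differed by -0.24 (adjusted p = 0.271). *Rht-D1* (AJ242531), the copy of the DELLA gene on the D genome, had 2010, 1489 and 1720 RPKM in *Rht-B1b* stems, against 1220, 1459 and 1256 RPKM in *Rht-B1a* stems. Relative to the other genes it differed by -0.16 (95% interval -0.61 to 0.28), with overlap. Without pair 3 neither gid1 (0.70), *Rht-B1* (0.80) nor gid2 (-0.82) passed, at adjusted p of 0.201 to 0.254. *Rht-B1* was also lost without pair 1 (0.60, adjusted p = 0.0917) and gid2 without pair 2 (-0.64, adjusted p = 0.0518). The call of gid2 was lost with the median gene as reference too. Over the alternatives tried adjusted p ran up to 0.254 for gid1, 0.201 for *Rht-B1* and 0.271 for gid2.

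Of the 5 chosen ratios between gibberellin genes 2 passed, gid1 to gid2 and gid2 to *Rht-B1*, against 6% of all 300 ratios. The 5 were chosen with earlier results of these data known. The ratio of gid1 to gid2 was 0.708, 0.599 and 0.940 in *Rht-B1b* stems, against 0.329, 0.157 and 0.232 in *Rht-B1a* stems. Receptor and F-box gene were closer to equal per length in *Rht-B1b* stems, and the log2 ratio was higher by 1.68 (standard error 0.28, adjusted p = 0.0325 from limma over 300 ratios), or 3.21-fold. As a share of the summed gid1 and gid2 level, gid1 made up 42.4 ± 5.57% in *Rht-B1b* stems and 19.1 ± 5.58% in *Rht-B1a* stems (SD, n = 3 each). The ratio of gid2 to *Rht-B1* was 0.179, 0.197 and 0.179 in *Rht-B1b* stems, against 0.516, 0.641 and 0.473 in *Rht-B1a* stems. This ratio varied little within *Rht-B1b* and its log2 value was lower by 1.54 (difference -1.54, standard error 0.23, adjusted p = 0.0325 from limma). Both calls were lost without pair 1 (adjusted p = 0.154), without pair 3 (adjusted p = 0.341) and with each ratio's own standard error.

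Between receptor and DELLA gene the ratio did not pass. The ratio of gid1 to *Rht-B1* was 0.127, 0.118 and 0.168 in *Rht-B1b* stems, against 0.170, 0.101 and 0.110 in *Rht-B1a* stems, a log2 difference of 0.14 (95% interval -0.53 to 0.81). These overlap, and the interval also holds differences of more than 1.5-fold. *Rht-B1* stood to *Rht-D1* as 2.42, 2.80 and 2.62 in *Rht-B1b* stems, against 1.48, 1.31 and 1.39 in *Rht-B1a* stems. The lines did not overlap and *Rht-B1* made up 72.3 ± 1.45% of the 2 DELLA genes in *Rht-B1b* stems and 58.2 ± 1.44% in *Rht-B1a* stems (SD, n = 3 each), but the log2 difference was 0.90 (standard error 0.23), just outside the threshold (adjusted p = 0.0579 from limma). It passed without the block (adjusted p = 0.0265), with a pseudocount of 100 (0.0469) and with both tissues in 1 fit (0.0105), in a range up to 0.387 over 9 alternatives. The 2 copies may share reads, and their ratio is uncertain to that extent. The ratio of gid1 to *Rht-D1*, 0.359 ± 0.0703 in *Rht-B1b* stems and 0.179 ± 0.0634 in *Rht-B1a* stems (SD, n = 3 each), likewise did not overlap and did not pass (log2 difference 1.04, adjusted p = 0.0751 from limma). That ratio passed without the block (adjusted p = 0.0265), without pair 2 (0.0291) and with both tissues in 1 fit (0.00822), in a range up to 0.441 over 8 alternatives.

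Of the 7 genes of starch synthesis 1, agp2, rose and 6 did not pass, a share near the 16.0% of all 25 genes that rose. The large subunit gene agp2 (AJ563452) had 3485, 2660 and 5209 RPKM in *Rht-B1b* stems, against 2040, 1193 and 1738 RPKM in *Rht-B1a* stems. The lines did not overlap in RPKM or in relative level, and the relative level was higher by 0.61 (standard error 0.22, adjusted p = 0.0297 from limma), or 1.52-fold. The small subunit gene (AY727927), whose product forms the same enzyme, had 1493, 1494 and 1810 RPKM in *Rht-B1b* stems, against 1602, 780 and 1325 RPKM in *Rht-B1a* stems. Its lines overlapped and its relative level differed by -0.14 (95% interval -0.58 to 0.31). Leaving out pair 2 (0.61, adjusted p = 0.0600) or pair 3 (0.49, adjusted p = 0.430) ended the call of agp2, as did leaving out the block (adjusted p = 0.0579). Its adjusted p was 0.0115 to 0.430 over 13 alternatives.

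The ratio of the large to the small subunit gene was 2.33, 1.78 and 2.88 in *Rht-B1b* stems, against 1.27, 1.53 and 1.31 in *Rht-B1a* stems. The lines did not overlap, and agp2 made up 69.4 ± 5.12% of the summed AGPase level in *Rht-B1b* stems and 57.7 ± 2.39% in *Rht-B1a* stems (SD, n = 3 each). The log2 difference of the ratio, 0.74 (95% interval 0.096 to 1.39), did not pass over 300 ratios (adjusted p = 0.104 from limma), though it did without pair 2 (1.00), where adjusted p was 0.0141, the lowest over 9 alternatives that reached 0.540.

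None of the 3 starch synthase genes passed. The granule-bound synthase gene GBSSII (AF109395) had 1739, 1534 and 2662 RPKM in *Rht-B1b* stems, against 1362, 902 and 1174 RPKM in *Rht-B1a* stems. Its relative level differed by 0.20, that of isoform IV (AY044844) by 0.074 and that of the IIc precursor (EU307274) by 0.35, each with overlap. Of their summed level GBSSII made up 65.6 ± 2.21% in *Rht-B1b* stems and 65.3 ± 3.61% in *Rht-B1a* stems (SD, n = 3 each). The isoforms did not shift detectably against each other, as the log2 ratio to GBSSII differed by -0.13 for isoform IV (95% interval -0.72 to 0.46) and by 0.15 for the IIc precursor (95% interval -0.42 to 0.72).

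Neither branching enzyme gene passed. Relative to the other genes sbeiia (HE591389) differed by -0.37 (adjusted p = 0.279 from limma) and Sbe2 (AF286319) by 0.0018, both with overlap, and with actin as the reference sbeiia was at 0.19. Each synthase stood higher against sbeiia in every *Rht-B1b* sample than in any *Rht-B1a* sample. The ratio of GBSSII to sbeiia was 0.912, 0.672 and 0.879 in *Rht-B1b* stems, against 0.508, 0.570 and 0.566 in *Rht-B1a* stems. The log2 differences were 0.57 for GBSSII, 0.44 for isoform IV and 0.72 for the IIc precursor, and none passed (adjusted p = 0.152, 0.299 and 0.0972 from limma). Against Sbe2 the same synthases differed by 0.20, 0.072 and 0.35, with overlap. The ratio of Sbe2 to sbeiia differed by 0.37 (95% interval -0.20 to 0.94).

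The log2 difference of the ratio of agp2 to each of the synthase and branching enzyme genes was above 0. It was 0.40 against GBSSII, where the lines did not overlap, and 0.53 against isoform IV and 0.25 against the IIc precursor, where they did. None of these 3 passed (adjusted p of 0.177 to 0.491 from limma), and the intervals reach 0.94, 1.12 and 0.82. Against the branching enzyme genes, which were not among the chosen ratios with agp2, it was 0.98 for sbeiia without overlap (adjusted p = 0.0578 from limma) and 0.60 for Sbe2 with overlap (adjusted p = 0.164 from limma).

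Both sucrose transporter genes, whose products load sucrose across membranes, lay lower relative to the other genes in *Rht-B1b* stems without overlap, although with actin as the reference SUT2D was at 0.055 and SUT1D at -0.10. SUT1D (AF408845) had 952, 944 and 764 RPKM in *Rht-B1b* stems, against 943, 1265 and 714 RPKM in *Rht-B1a* stems. SUT2D (KJ812205) had 549, 601 and 589 RPKM in *Rht-B1b* stems, against 623, 537 and 518 RPKM in *Rht-B1a* stems. On the deposited scale both genes overlapped between the lines, so the difference lies in how they stand to the other genes. The relative level of SUT1D fell by 0.67 (standard error 0.22, adjusted p = 0.0163 from limma) and that of SUT2D differed by -0.51, short of the threshold (adjusted p = 0.0789 from limma). The call of SUT1D was lost without pair 2 (-0.52, adjusted p = 0.0945), without pair 3 (-0.68, adjusted p = 0.254), without the block (adjusted p = 0.0636) and with the median gene as reference (-0.54, adjusted p = 0.200), with adjusted p up to 0.583 over 13 alternatives. The log2 ratio of SUT1D to SUT2D differed by -0.16 (95% interval -0.78 to 0.46), with overlap.

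The AGPase large subunit gene stood higher against both transporter genes in *Rht-B1b* stems, and both ratios passed. The ratio of agp2 to SUT1D was 3.66, 2.82 and 6.82 in *Rht-B1b* stems, against 2.16, 0.943 and 2.43 in *Rht-B1a* stems. Every *Rht-B1b* ratio was above every *Rht-B1a* ratio, and the log2 ratio was higher by 1.27 (standard error 0.27, adjusted p = 0.0432 from limma). Against SUT2D the ratio of agp2 was 6.35, 4.43 and 8.85 in *Rht-B1b* stems, against 3.27, 2.22 and 3.36 in *Rht-B1a* stems, again with no overlap. That log2 ratio was higher by 1.12 (standard error 0.24, adjusted p = 0.0455 from limma). These calls were lost without pair 1 and without pair 3 (adjusted p of 0.154 to 0.356) and with each ratio's own standard error.

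Glycolysis was represented by hexokinase (AY974231), which phosphorylates hexoses, and by GAPC8 (KR029493), a glyceraldehyde-3-phosphate dehydrogenase. Hexokinase had 127, 168 and 261 RPKM in *Rht-B1b* stems, against 166, 107 and 134 RPKM in *Rht-B1a* stems. GAPC8, the second most abundant gene per length in all 6 stems, had 97205, 95664 and 111790 RPKM in *Rht-B1b* stems, against 68767, 46503 and 81676 RPKM in *Rht-B1a* stems. Relative levels overlapped for both, and neither passed (-0.16 for hexokinase, 0.10 for GAPC8). The ratio of agp2 to hexokinase was 27.4, 15.8 and 19.9 in *Rht-B1b* stems, against 12.3, 11.1 and 12.9 in *Rht-B1a* stems, without overlap but not past the threshold (log2 difference 0.76, adjusted p = 0.0870 from limma).

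Of 31 ratios between pathway steps, 4 passed, the lines did not overlap for 15, and 12 were at an unadjusted p under 0.05. Among all 300 ratios 6% passed and 39.0% did not overlap. The 31 are part of the 300 and were chosen with earlier results of these data known, so their counts test nothing about pathway steps. The ratios are not independent, since they share genes.

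**Figure D2:**
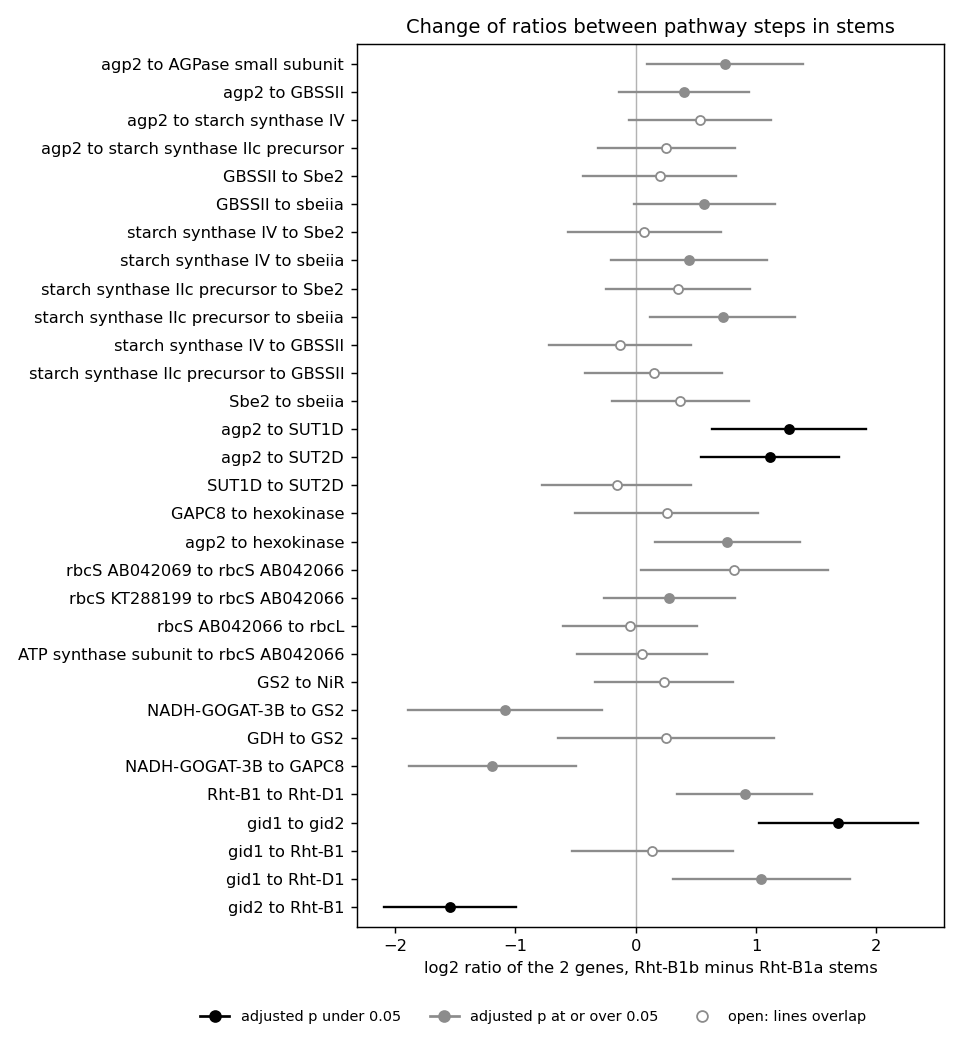
Difference of the log2 ratio of 2 genes, *Rht-B1b* minus *Rht-B1a* stems (n = 3 each), for 31 ratios between pathway steps, with 95% intervals from limma. Black marks an adjusted p under 0.05 over 300 ratios and open circles ratios for which the lines overlap, and the 4 black points are agp2 to SUT1D and to SUT2D, gid1 to gid2 and gid2 to Rht-B1.

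Of the 4 nitrogen genes 1 fell and 3 did not pass, against 12.0% of all 25 genes that fell, a count that rests on 1 gene, with a median difference of -0.12 against 0.0018 over all 25 genes. The paper calls NADH-GOGAT-3B (KC960544) a ferredoxin dependent glutamate synthase, while the symbol itself names NADH. It had 1151, 2570 and 2529 RPKM in *Rht-B1b* stems, against 2696, 3020 and 2739 RPKM in *Rht-B1a* stems. It was below *Rht-B1a* in every sample even on the deposited scale, and *Rht-B1b* stem 1 was the lowest by more than 2-fold. The relative level was -0.63, 0.58 and 0.25 in *Rht-B1b* stems, against 1.01, 1.36 and 1.10 in *Rht-B1a* stems, and it fell by 1.09 (standard error 0.22, adjusted p = 0.000232 from limma). Leaving out each pair in turn kept the call, with differences of -0.82 to -1.24, while actin as the reference ended it (-0.53, adjusted p = 0.161). The gene's own standard error ended the call too, and over 13 alternatives adjusted p was 0.000166 to 0.182.

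Glutamate synthase acts after nitrite reductase (NiR) and glutamine synthetase (GS2 is the plastid form). GS2 (KY640323) had 14826, 11673 and 18843 RPKM in *Rht-B1b* stems, against 9391, 11114 and 9675 RPKM in *Rht-B1a* stems, and its relative level differed by -0.00047. NiR (KY214455) spanned 1242 to 1349 RPKM in *Rht-B1b* stems and 901 to 1288 RPKM in *Rht-B1a* stems, with a relative difference of -0.24. The glutamate dehydrogenase gene GDH (KU869729) spanned 3498 to 3868 RPKM in *Rht-B1b* stems and 1541 to 2757 RPKM in *Rht-B1a* stems. GDH did not overlap in RPKM but did in relative level, where it differed by 0.25 (adjusted p = 0.544 from limma).

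Set against GS2, NADH-GOGAT-3B was lower in *Rht-B1b* stems without overlap. The ratio of NADH-GOGAT-3B to GS2 was 0.0776, 0.220 and 0.134 in *Rht-B1b* stems, against 0.287, 0.272 and 0.283 in *Rht-B1a* stems. It was nearly constant in *Rht-B1a* and spread widely in *Rht-B1b*, and the log2 difference of -1.09 (standard error 0.34) did not pass over 300 ratios (adjusted p = 0.0774 from limma). Against GAPC8 it was 0.0118, 0.0269 and 0.0226 in *Rht-B1b* stems, against 0.0392, 0.0649 and 0.0335 in *Rht-B1a* stems, and the log2 difference of -1.19 likewise did not pass (adjusted p = 0.0545 from limma). Both passed without pair 2, with log2 differences of -1.48 and -1.15, without the block (adjusted p = 0.0355 and 0.0265) and when both tissues were fitted together (adjusted p = 0.00962 and 0.00337). The ratio to GAPC8 also passed with a pseudocount of 1 (adjusted p = 0.0496) or 100 (adjusted p = 0.0469), and over the alternatives adjusted p reached 0.408 for GS2 and 0.341 for GAPC8. The ratios of GS2 to NiR (0.24, 95% interval -0.34 to 0.81) and of GDH to GS2 (0.25, 95% interval -0.64 to 1.15) overlapped between the lines.

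Of the 4 RuBisCO genes 1, a small subunit sequence, rose and 3 did not pass, against 16.0% of all 25 genes that rose, so the count rests on 1 gene. AB042069 had 14973, 7832 and 15739 RPKM in *Rht-B1b* stems, against 4030, 6168 and 4276 RPKM in *Rht-B1a* stems. Its RPKM did not overlap, but its relative level in *Rht-B1b* stem 2, 2.19, was below the 2.39 of *Rht-B1a* stem 2. The relative level was higher by 0.81 (shared standard error 0.22, adjusted p = 0.00410 from limma) and higher in 2 of 3 pairs. The difference was 1.31 without pair 2, and leaving out pair 1 (0.47, adjusted p = 0.215) or pair 3 (0.64, adjusted p = 0.339) ended the call. With the gene's own standard error, not the one shared by all 25 genes, adjusted p was 0.585, the highest over 13 alternatives.

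The main sequence AB042066, the most abundant gene per length in all 6 stems, had 128283, 114003 and 135611 RPKM in *Rht-B1b* stems, against 82651, 87297 and 87315 RPKM in *Rht-B1a* stems. It differed by -0.013 once the common shift was removed (95% interval -0.46 to 0.43), with overlap. With the median gene as reference it differed by 0.12, and with actin as the reference by 0.55 (adjusted p = 0.0353 from limma). No difference beyond the common shift was detected for AB042066, and the interval also holds differences in either direction. KT288199 had 76512, 63936 and 83782 RPKM in *Rht-B1b* stems, against 42838, 36454 and 46465 RPKM in *Rht-B1a* stems, and a relative difference of 0.27 without overlap (adjusted p = 0.522 from limma). Of the summed rbcS level, AB042066 made up 59.1 ± 1.96% in *Rht-B1b* stems and 64.8 ± 2.13% in *Rht-B1a* stems, and AB042069 5.91 ± 1.47% in *Rht-B1b* stems and 3.65 ± 0.949% in *Rht-B1a* stems (SD, n = 3 each). The ratio of AB042069 to AB042066 did not pass (log2 difference 0.82, adjusted p = 0.131 from limma) and overlapped. The 3 sequences may share reads, and the split between them is uncertain to that extent.

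The large subunit gene rbcL (LT576864) was listed at 0.183, 0.183 and 0.222 RPKM in *Rht-B1b* stems, against 0.130, 0.117 and 0.141 RPKM in *Rht-B1a* stems, the lowest values of the 25 genes. The ratio of AB042066 to rbcL differed by -0.046 on the log2 scale (95% interval -0.61 to 0.51). The ATP synthase subunit gene (GU369976) had 11300, 8644 and 11220 RPKM in *Rht-B1b* stems, against 7146, 6563 and 6674 RPKM in *Rht-B1a* stems. Its ratio to AB042066 was 0.0822 ± 0.00615 in *Rht-B1b* stems and 0.0794 ± 0.00618 in *Rht-B1a* stems (SD, n = 3 each), a log2 difference of 0.051 (95% interval -0.49 to 0.59) with overlap. The gene named PK (KU877880), for which the sources used here give no role, differed by -0.22 (adjusted p = 0.595 from limma).

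Over all 300 gene pairs, 18 ratios (6%) passed in limma, 117 (39.0%) did not overlap between the lines, and 101 were at an unadjusted p under 0.05. The 18 ratios came from few genes, and each had NADH-GOGAT-3B, gid2, SUT1D, SUT2D or sbeiia as the gene that stood lower in *Rht-B1b* stems. NADH-GOGAT-3B took part in 6 of them, gid1 in 5, and agp2, *Rht-B1*, SUT1D and gid2 in 4 each. NADH-GOGAT-3B stood lower without overlap against 20 of its 24 partners and gid2 against 18, while gid1 stood higher against 19 and *Rht-B1* against 16. The largest was gid1 to NADH-GOGAT-3B, with ratios of 0.537, 0.191 and 0.299 in *Rht-B1b* stems, against 0.114, 0.0641 and 0.0699 in *Rht-B1a* stems. Its log2 difference was 1.97 (standard error 0.25, adjusted p = 0.0325 from limma), or 3.92-fold.

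*Rht-B1* to NADH-GOGAT-3B was 4.23, 1.62 and 1.78 in *Rht-B1b* stems, against 0.669, 0.635 and 0.638 in *Rht-B1a* stems. This ratio also crossed 1, so that the DELLA gene was above the glutamate synthase gene per length in all *Rht-B1b* stems and below it in all *Rht-B1a* stems, with a log2 difference of 1.83. The ratio of agp2 to NADH-GOGAT-3B, 3.03, 1.03 and 2.06 in *Rht-B1b* stems, against 0.757, 0.395 and 0.635 in *Rht-B1a* stems, crossed 1 as well, with a log2 difference of 1.70. Among the other ratios with the lowest adjusted p, 0.0325, log2 differences were 1.44 for the IIc precursor to NADH-GOGAT-3B and 1.61 for AB042069 to gid2. They were 1.41 for *Rht-B1* to SUT1D, 1.55 for gid1 to SUT1D and 1.39 for gid1 to SUT2D. No ratio passed without pair 1 or without pair 3 (80 and 40 at an unadjusted p under 0.05), 80 passed without pair 2, and with each ratio's own standard error none passed while 56 had an unadjusted p under 0.05. The count was 51 without the block.

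The order of the genes by RPKM, which no scaling of a sample can change, was nearly the same in both lines. Of 300 gene pairs 255 had the same order in all 6 stems, 41 varied within a line, and 4 had 1 order in all *Rht-B1b* stems and the reverse in all *Rht-B1a* stems. In these 4, agp2 was above sbeiia, NADH-GOGAT-3B and PK in *Rht-B1b* stems, and *Rht-B1* was above NADH-GOGAT-3B. Ranks of agp2, counted from 1 for the highest of 25 genes, were 9, 9 and 7 in *Rht-B1b* stems, against 11, 16 and 12 in *Rht-B1a* stems. NADH-GOGAT-3B ranked 16, 10 and 13 in *Rht-B1b* stems, against 7, 7 and 8 in *Rht-B1a* stems, the widest move in the profile. GBSSII ranked 13, 13 and 11 in *Rht-B1b* stems, against 14, 17 and 15 in *Rht-B1a* stems, and sbeiia 12, 11 and 10 in *Rht-B1b* stems, against 8, 9 and 9 in *Rht-B1a* stems. For these 4 genes, agp2 and GBSSII upward and sbeiia and NADH-GOGAT-3B downward, the ranks did not overlap between the lines. Without pair 2 the count of reversed gene pairs was 14.

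**Figure D3:**
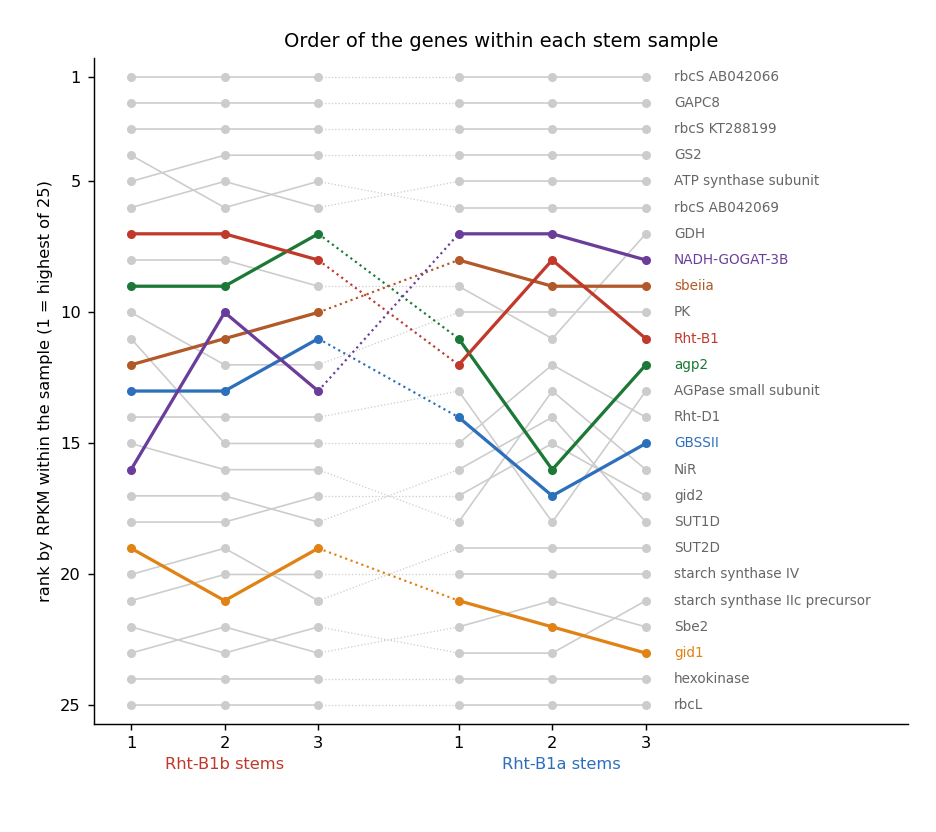
Rank by RPKM of 25 genes within each of 3 *Rht-B1b* and 3 *Rht-B1a* stem samples, 1 being the highest. Lines only join the points of a gene, since replicates have no order, and 6 genes are coloured, among them NADH-GOGAT-3B at ranks 16, 10 and 13 in *Rht-B1b* and 7, 7 and 8 in *Rht-B1a*.

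Whole profiles of the 2 lines lay farther apart than those of 1 line on average, but not in every case. The Euclidean distance of relative levels averaged 2.75 between the lines (1.77 to 3.60, 9 sample pairs), 1.87 within *Rht-B1b* (1.81 to 1.98, 3 sample pairs) and 1.88 within *Rht-B1a* (1.22 to 2.21, 3 sample pairs). The nearest profile was of the same line for 5 of 6 stems. *Rht-B1b* stem 2 was nearest to *Rht-B1a* stem 3, at 1.77. It had the lowest relative levels of agp2, gid1 and AB042069 among *Rht-B1b* stems, and the highest of NADH-GOGAT-3B, while *Rht-B1* was lowest in *Rht-B1b* stem 3. Rank correlation over the 25 genes (Spearman, across genes that are not independent) was 0.909 to 0.979 between the lines, 0.972 to 0.987 within *Rht-B1b* and 0.952 to 0.990 within *Rht-B1a*.

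Where the stem differs from the flag leaf was tested as the difference of the *Rht-B1b* effect on relative levels between the tissues, in 1 fit of 12 samples. In this test 5 of 25 genes (20.0%) passed: agp2, gid1, gid2, SUT1D and NADH-GOGAT-3B. The relative level of agp2 differed by 0.61 in stems and by -0.40 in leaves, that of gid1 by 0.88 in stems and by -0.12 in leaves, and that of gid2 by -0.80 in stems and by 0.25 in leaves. SUT1D differed by -0.67 in stems and by 0.21 in leaves, and NADH-GOGAT-3B by -1.09 in stems and by -0.18 in leaves. In a fit of leaves alone none of these 5 genes passed (adjusted p of 0.140 to 0.735 from limma). Leaf values of agp2 were -3.45, -3.66 and -3.18 in *Rht-B1b*, against -3.32, -3.27 and -2.51 in *Rht-B1a*, with overlap. By the assumed pairs agp2 was lower in each of 3 leaf pairs and higher in each of 3 stem pairs. *Rht-B1* was higher in all 3 pairs of both tissues, by 0.74 in stems and 0.98 in leaves, and the difference of -0.24 (95% interval -0.77 to 0.29) did not pass (adjusted p = 0.682 from limma). No gene passed without pair 3 of each tissue (6 at an unadjusted p under 0.05), and none with each gene's own standard error (5 at an unadjusted p under 0.05). Leaf and stem samples were treated as independent, since which leaf belongs to which stem is not named.

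**Figure D4:**
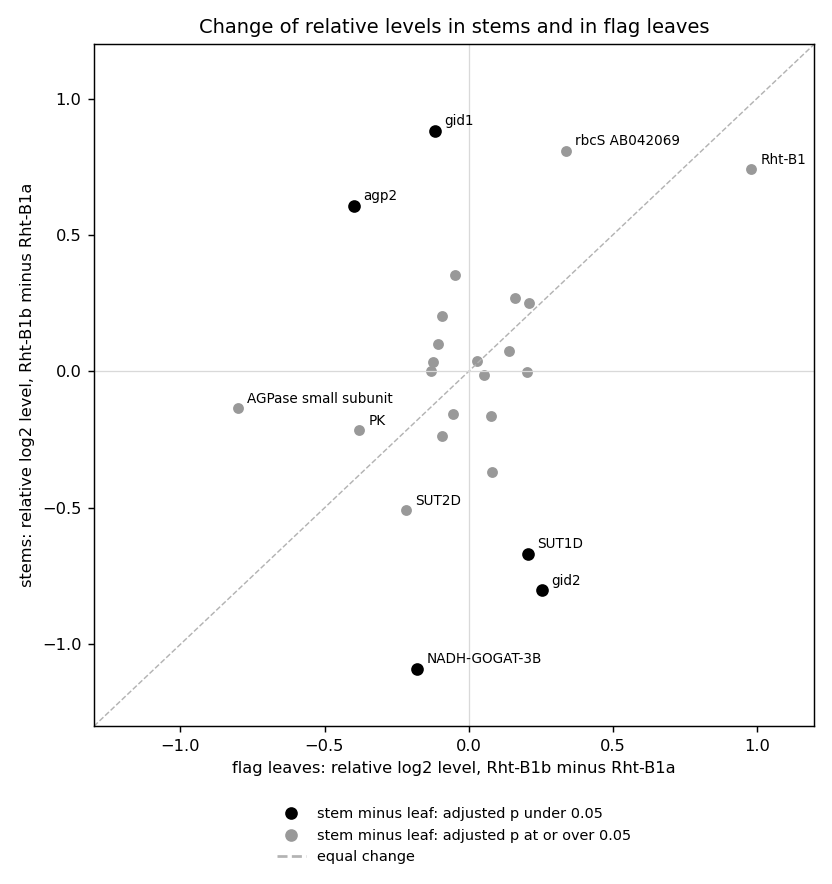
Difference of the relative log2 level, *Rht-B1b* minus *Rht-B1a*, in stems (vertical axis) and in flag leaves (horizontal axis) for 25 genes, each from 3 samples per line and tissue. Black points passed the test of the difference between tissues and the dashed line marks equal change, near which *Rht-B1* lies at 0.98 in leaves and 0.74 in stems.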

How the data were processed

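RNA of 3 stem samples per line was used, with 3 flag leaf samples per line for the comparison of tissues. Of 24 listed samples 2 belong to each tissue sample, which has 1 column of values and counts as 1 replicate. The authors aligned reads to chosen wheat gene sequences in ArrayStar, with a full match (100%) of 50 bp or more, and deposited RPKM scaled to actin. Its version and a genome build are not given in the sources used here. Of 27 lines of the sheet 1 is a repeat, and all 12 value columns were used. The sheet also holds the authors' p-values and means, and other sheets their comparison with rice, neither of which was used. Sequences of the genes and coordinates are not given here.

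Relative levels and ratios were taken on the log2 scale without a pseudocount or filter. limma 3.58.1 in R 4.3.3 was fitted to 25 genes or 300 ratios with pairs of consecutive tissue sample numbers as a block, as the study states a paired test. Which samples pair is an assumption. Adjustment was by Benjamini-Hochberg with a threshold of 0.05. Tables and plots were made in Python 3.11.15 with pandas 2.3.3, numpy 2.4.6 and matplotlib 3.10.9. The fits were also run on simulated profiles with planted rises and falls in equal number and no pair effect. That run cannot test the assumed pairing or a shift in only 1 direction. Genes are named as members of fixed lists and of the 31 pathway ratios, when they passed or did not overlap, and in up to 10 ratios with the lowest adjusted p. Members, lists and ratios were chosen with earlier results of these data known. Alternatives left out the block, each pair, moderation or genes under a mean of 500 RPKM, added a pseudocount of 1 or 100, changed the reference gene set, or fitted both tissues.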

Additional observations from a re-analysis of the deposited data

Results flagged for a closer look

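In 5 genes the *Rht-B1b* effect on the relative level differed between stems and flag leaves by the test of the difference itself (limma, adjusted over 25 genes). The difference, stem minus leaf, was 1.00 for agp2 (standard error 0.24, adjusted p = 0.00994), with agp2 higher in 3 of 3 pairs in stems and in 0 of 3 in leaves. For gid1 it was 1.00 (standard error 0.25, adjusted p = 0.00994), higher in 3 of 3 pairs in stems and 1 of 3 in leaves. The difference was -1.06 for gid2 (standard error 0.25, adjusted p = 0.00994), higher in 0 of 3 pairs in stems and 2 of 3 in leaves. SUT1D had a difference of -0.87 (standard error 0.23, adjusted p = 0.0122), higher in 0 of 3 pairs in stems and 3 of 3 in leaves. NADH-GOGAT-3B had a difference of -0.91 (standard error 0.29, adjusted p = 0.0321), higher in 0 of 3 pairs in stems and 1 of 3 in leaves, and of -0.41 without pair 1 (adjusted p = 0.375). All 5 calls were lost without pair 3 (adjusted p = 0.195 for each), those of gid2 and SUT1D also without pair 2 (adjusted p = 0.0636 and 0.0765). Without the block the calls of SUT1D (adjusted p = 0.0644) and NADH-GOGAT-3B (adjusted p = 0.111) were lost. With the median gene as the reference gid2 (-0.85), SUT1D (-0.66) and NADH-GOGAT-3B (-0.70) did not pass, nor with actin as the reference (-0.63, -0.45 and -0.49). NADH-GOGAT-3B was also lost among genes of at least 500 RPKM (adjusted p = 0.0924), and all 5 with each gene's own standard error. Over the alternatives adjusted p reached 0.195 for agp2, gid1 and gid2, 0.200 for SUT1D and 0.375 for NADH-GOGAT-3B.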

How the results depend on the processing

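Of 7 genes that passed, 5 remained without the block, and the count was 1 to 5 without each pair in turn, 13 with actin as the reference (13 higher and 0 lower, a common shift of 0.56), 5 with the median gene (4 higher and 1 lower, a shift of 0.13), and 0 with ordinary standard errors. For ratios the count of 18 became 51 without the block, 0 to 80 without each pair, 32 and 38 with a pseudocount of 1 and 100, 11 of 171 among genes of at least 500 RPKM, 98 with both tissues in 1 fit and 0 with ordinary standard errors. For the difference between tissues the count of 5 became 3 without the block, 0 to 5 without each pair, 2 with the median gene, 3 among genes of at least 500 RPKM and 0 with ordinary standard errors. The count of reversed gene pairs was 6 to 14 without each pair. The mean distance between lines minus that within lines was 0.88 and lay between 0.66 and 1.36 under every alternative. The causes of these changes were not tested.

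Deviations from the line means correlated within the pairs at -0.36, 0.041 and 0.29 in stems and at 0.51, -0.076 and 0.71 in leaves, which is over 0.1 in 2 of 3 leaf pairs and 1 of 3 stem pairs. Not every *Rht-B1b* sample correlated best with the *Rht-B1a* sample of its own number. The numbers are therefore not shown to pair the samples. Without the block the calls of agp2 (adjusted p = 0.0579) and SUT1D (adjusted p = 0.0636) were lost.

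Over the alternatives 44 single values changed sign, each of 1 gene or ratio under 1 setting, all of genes or ratios that had not passed. With actin as the reference the relative level was 0.55 for AB042066, 0.43 for the AGPase small subunit, 0.19 for sbeiia, 0.055 for SUT2D, 0.41 for hexokinase, 0.33 for NiR, 0.56 for GS2, 0.40 for Rht-D1 and 0.35 for PK. With the median gene it was 0.12 for AB042066 and 0.13 for GS2, and with the mean of genes other than rbcS and Rht-B1 0.073 for AB042066 and 0.086 for GS2 (0.00093 for GS2 without rbcL). With a pseudocount of 1 and of 100 it was 0.0085 and 0.060 for AB042066, 0.021 and 0.068 for GS2 and -0.46 and -0.49 for rbcL, and Sbe2 was at -0.072 with 100. Among genes of at least 500 RPKM it was 0.050 for AB042066 and 0.062 for GS2. The ratio of AB042066 to rbcL was 0.47 and 0.55 with a pseudocount of 1 and 100, that of the IIc precursor to GBSSII -0.028 and that of gid1 to Rht-B1 -0.13 with 100. Without each pair in turn relative levels ran from -0.13 to 0.062 for AB042066, -0.068 to 0.13 for the ATP synthase subunit, -0.40 to 0.052 for the AGPase small subunit, -0.26 to 0.22 for Sbe2, -0.35 to 0.16 for hexokinase, -0.096 to 0.29 for GAPC8, -0.014 to 0.57 for GDH, -0.13 to 0.24 for GS2 and -0.40 to 0.014 for Rht-D1. Log2 ratios ran from -0.14 to 0.061 for AB042066 to rbcL, -0.27 to 0.047 for isoform IV to GBSSII, -0.16 to 0.29 for isoform IV to Sbe2, -0.34 to 0.054 for SUT1D to SUT2D, -0.058 to 0.64 for GAPC8 to hexokinase, -0.25 to 0.69 for GDH to GS2 and -0.097 to 0.42 for gid1 to Rht-B1. Depth is unknown, so what counting error limits cannot be said.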
